A study of Drosophila melanogaster with 6 samples.

Results

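Drosophila melanogaster S2 cells, a line derived from embryos that resembles hemocytes, the blood cells of the fly, were treated with RNA interference (RNAi) against CP190, and their transcript levels were compared with those of S2 cells treated with RNAi against LacZ. The lacZ gene comes from bacteria and has no target in fly cells; it served as the control, so both groups had received an RNAi treatment. The comparison uses 4 of the 6 arrays of the series, 2 with CP190 RNAi and 2 with LacZ RNAi, chosen by their titles. It covers 18769 of the 18952 probe sets on the array, all those that are not manufacturer controls. The other 2 arrays, from cells with RNAi against CG9740 (Ibf2), entered the estimate of the spread and a direct comparison of the knockdowns. The series design calls the 2 arrays of each group biological replicates. The dose of double-stranded RNA, the length of the treatment and how the cultures were kept apart are not stated in the labels used.

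CP190 is a zinc finger and BTB domain protein of centrosomes and of chromatin insulators, the DNA elements that can block an enhancer from acting on a promoter and can separate chromatin domains. It does not act alone at these sites: DNA-binding insulator proteins such as su(Hw), CTCF, BEAF-32 and the pair Ibf1 and Ibf2 bring it to chromatin, and mod(mdg4) is a partner in the su(Hw) complex. The title of the series names the co-regulation of genes by CP190 and CG9740 as its question.

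Values are RMA expression values on the log2 scale, so a difference of 1 is a 2-fold change. The medians of the 6 arrays lay between 5.69 and 5.74. Of 12 hemocyte markers, 9 had a mean above the brightest Bacillus control. So had 3 of 4 neuron markers, so the count does not single out hemocytes. The Bacillus controls are bacterial probe sets with no fly target, and their highest mean was 6.07. That level is used here as a rough limit below which a fold change is not exact. It is set by 1 of 27 such probe sets, which read 5.97 to 6.22, and lies above the array medians. The next highest read 4.92 to 5.17, so a level below the limit can still exceed most of these controls. Of the tested probe sets 46.1% had a mean above the limit. Among 11982 genes read from 1 probe set each, as the markers were, the share was 54.6%. Manufacturer controls for actin differed by -0.10 to 0.01 on the log2 scale in CP190 RNAi, those for the translation factor eIF-4a by -0.13 to -0.05 and those for 18S rRNA by -0.19 to -0.08. The controls for the glycolytic enzyme GAPDH went both ways, with the 4 probe sets of one design at 0.29 to 0.49, of which 2 had an unadjusted p under 0.05, and the 3 of the other at -0.17 to -0.07. All controls lay between -0.43 and 0.49. limma called 0 of the 183 controls, with p-values adjusted over these controls alone, and 10 had an unadjusted p under 0.05. Of the tested probe sets, adjusted over all of them, 0.0799% were called and 8.57% had an unadjusted p under 0.05.

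The transcript targeted by the RNAi was lower in both knockdown arrays. The probe set of Cp190 read 11.81 and 11.92 on the LacZ arrays and 9.71 and 9.72 on the CP190 arrays. The groups were separated by 2.08, the widest gap among the called probe sets, and the 2 CP190 values were almost equal. On the arrays with CG9740 RNAi the same probe set read 11.80 and 11.54, close to the control. The change in CP190 RNAi was -2.15 (SE 0.11; 95% interval -2.39 to -1.90), a 4.42-fold fall with a limma adjusted p of 0.000679. With any single array left out the change lay between -2.20 and -2.09, and the call was lost only without CP190 replicate 1 (limma adjusted p 0.0516). The direct protein-coding neighbours of Cp190 in the RefSeq Release 6 annotation are Zip88E, which overlaps Cp190, and CG4338. They had changes of 0.03 and 0.04.

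Across the array the knockdown left most values close to the control. The median log2 change was -0.01, and 98.4% of probe sets changed by less than 0.5 in either direction. limma called 15 probe sets at an adjusted p under 0.05 (0.0799% of those tested), which belong to 14 genes. Of these, 7 probe sets of 6 genes rose (0.0373%) and 8 probe sets of 8 genes fell (0.0426%), the target included. All 15 are paired with a single gene symbol. In each of them the CP190 and LacZ arrays did not overlap, with a gap of 0.73 to 2.08, but 39.3% of all probe sets have groups that do not overlap (19.4% with CP190 higher, 19.9% with CP190 lower). At an unadjusted p under 0.05 there were 1608 (8.57%; 4.48% higher and 4.09% lower). The calls end between DIP-alpha and CG10508 (adjusted p 0.0346) and the uncalled CG30148 (0.0536).

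**Figure D1:**
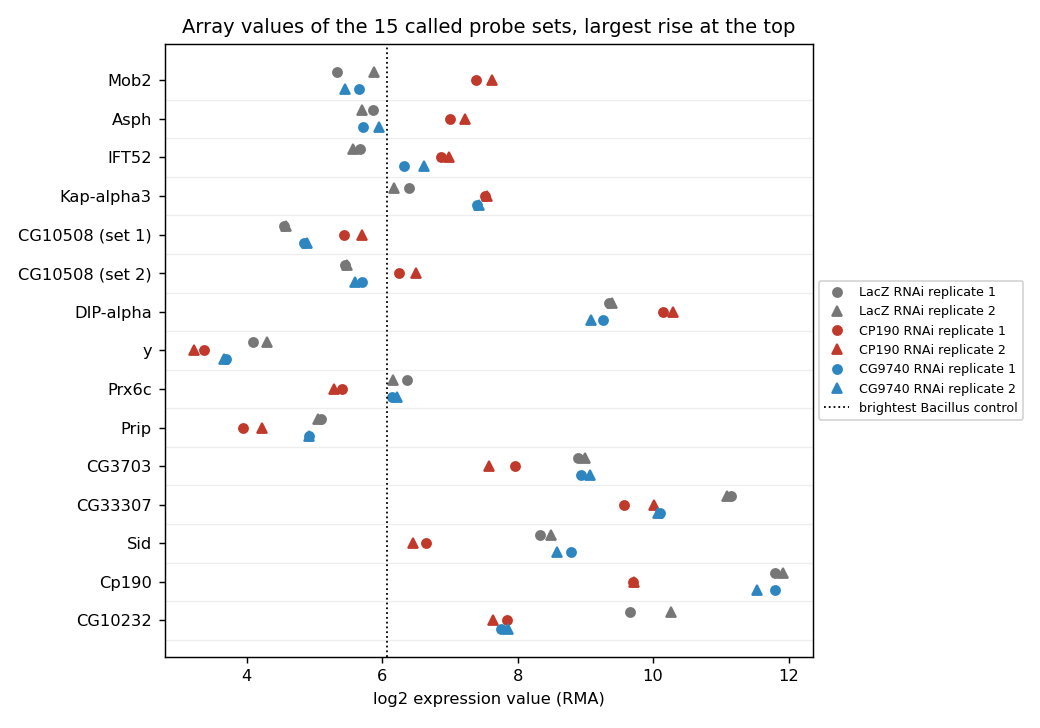
Log2 expression value (horizontal axis) of each of the 15 called probe sets on each of the 6 arrays, with LacZ RNAi in grey, CP190 RNAi in red and CG9740 RNAi in blue, circles for replicate 1 and triangles for replicate 2. Red and grey points are apart in every line; for Kap-alpha3 and CG10232 the blue points lie beside the red ones, and for Sid, Cp190, Mob2 and CG3703 they lie beside the grey ones.

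**Figure D2:**
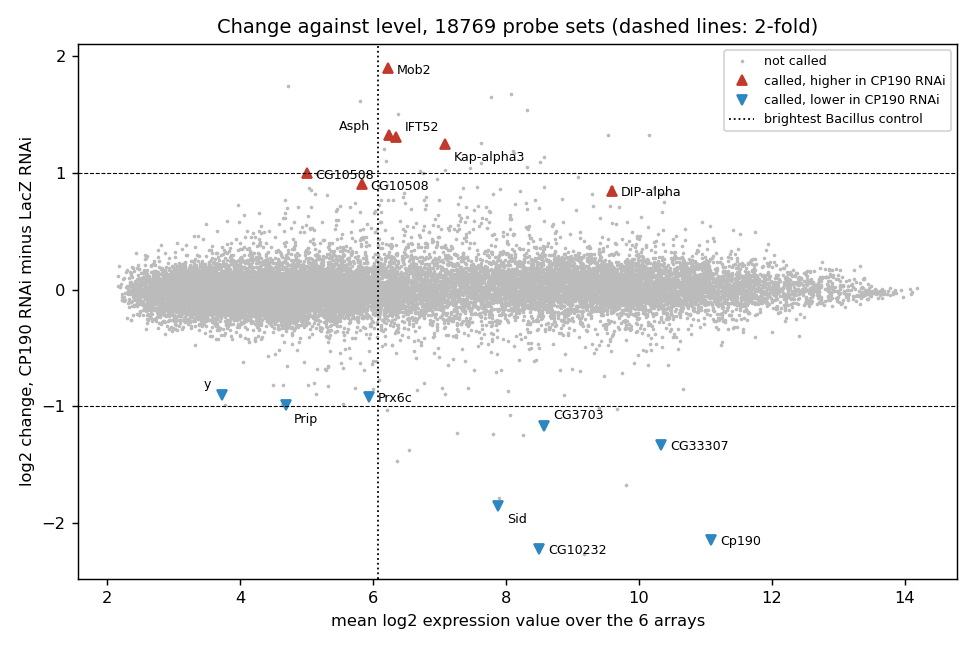
Log2 change of CP190 RNAi over LacZ RNAi (vertical axis) against the mean log2 value over the 6 arrays (horizontal axis) for 18769 probe sets, with the 7 called rises as red and the 8 called falls as blue triangles. Most points lie within 0.5 of 0, and the dotted line marks the brightest Bacillus control at 6.07.

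Among the other genes that fell, those above the Bacillus controls in both groups covered a protease, a nuclease and 2 genes without a described role here. CG10232, a gene of the trypsin-like serine protease family, read 9.66 and 10.26 on the LacZ arrays and 7.84 and 7.63 on the CP190 arrays. Both CP190 values were lower by 1.82 or more, although the LacZ arrays were 0.60 apart. Its change was -2.22 (SE 0.18), a 4.67-fold fall (limma adjusted p 0.00751). Sid, the stress induced DNase, read 8.33 and 8.50 in LacZ RNAi and 6.65 and 6.45 in CP190 RNAi. The groups lay 1.67 apart, much further than the replicates. The fall was 3.63-fold (log2 change -1.86, SE 0.12; limma adjusted p 0.00201). CG33307 read 11.15 and 11.10 in the control and 9.58 and 10.01 after CP190 RNAi. Its fall was 2.51-fold (log2 change -1.33, SE 0.14; limma adjusted p 0.0219), and the CP190 arrays differed from each other by 0.43, the widest replicate gap of the knockdown among the called probe sets. CG3703 read 8.89 and 8.997 in the control against 7.97 and 7.58, so both knockdown arrays were lower. It fell 2.25-fold (log2 change -1.17, SE 0.13; limma adjusted p 0.0315). With any single array left out, the log2 changes stayed between -2.52 and -1.92 for CG10232, -1.96 and -1.76 for Sid, -1.55 and -1.11 for CG33307 and -1.36 and -0.97 for CG3703. The call of CG3703 was lost without any 1 of the 4 compared arrays, those of CG10232 and Sid without either CP190 array, and that of CG33307 without CP190 replicate 1 or either LacZ array.

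The remaining 3 falls were measured at low levels. Prx6c, a peroxiredoxin that reduces peroxides, read 6.37 and 6.16 in LacZ RNAi and 5.40 and 5.29 in CP190 RNAi. Prip, an aquaporin that conducts water across membranes, read 5.10 and 5.06 against 3.95 and 4.23. The pigmentation gene y (yellow), which carries the gypsy insulator in the classic y allele used to study su(Hw), read 4.09 and 4.30 against 3.37 and 3.22. In all 3 genes both knockdown arrays were below both controls, but the CP190 level of Prx6c and all levels of Prip and y lay below the brightest Bacillus control. The measured log2 changes of -0.92 (limma adjusted p 0.0280), -0.99 (0.0272) and -0.90 (0.0315) therefore give no exact fold. The calls of Prx6c and Prip were lost without any 1 of the 4 compared arrays, and that of y without CP190 replicate 1, CP190 replicate 2 or LacZ replicate 2. The changes ranged from -1.02 to -0.82 for Prx6c, from -1.13 to -0.85 for Prip and from -1.005 to -0.80 for y over all single removals. That of y was also lost with quantile normalization.

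Of the genes that rose, 2 were measured above the Bacillus controls in both groups. Kap-alpha3, an importin alpha that links cargo proteins to the nuclear import receptor, read 6.40 and 6.18 in LacZ RNAi and 7.51 and 7.55 in CP190 RNAi. The knockdown arrays were nearly equal and lay 1.12 above the higher control. The rise was 2.37-fold (log2 change 1.25, SE 0.10; limma adjusted p 0.00751). DIP-alpha, a cell surface protein of the immunoglobulin superfamily that binds Dpr proteins, read 9.35 and 9.39 in the control against 10.14 and 10.30. Its replicates lay close together, and the knockdown arrays were 0.75 above the higher control. Its rise was 1.80-fold (log2 change 0.85, SE 0.10; limma adjusted p 0.0346). The call of Kap-alpha3 was lost without either CP190 array (log2 change 1.14 to 1.35 over all single removals), and that of DIP-alpha without any 1 of the 4 compared arrays (0.77 to 0.92).

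The other rises started from control levels below the Bacillus limit, so their log2 changes give no exact fold. Mob2, an activator of NDR family kinases, read 5.33 and 5.88 in LacZ RNAi and 7.38 and 7.63 in CP190 RNAi. This was the largest called rise, at 1.90 (SE 0.18; limma adjusted p 0.0141), and the groups lay 1.499 apart. Asph, an aspartyl beta-hydroxylase, read 5.86 and 5.71 against 7.0002 and 7.22. IFT52, a subunit of the intraflagellar transport machinery that builds cilia, read 5.67 and 5.56 against 6.86 and 6.99. Both rose by a similar amount, Asph by 1.33 (SE 0.12; limma adjusted p 0.0127) and IFT52 by 1.31 (SE 0.12; limma adjusted p 0.0119). CG10508 was called through a pair of probe sets, one at 4.56 and 4.58 against 5.44 and 5.697, the other at 5.45 and 5.48 against 6.24 and 6.49. The first rose by 0.999 and the second by 0.90 (limma adjusted p 0.0220 and 0.0346). All of these calls were lost without either CP190 array, those of Asph, IFT52 and CG10508 also without LacZ replicate 2, and those of CG10508 also without LacZ replicate 1. Over all single removals the changes ranged from 1.62 to 2.18 for Mob2, from 1.22 to 1.44 for Asph, from 1.25 to 1.37 for IFT52 and from 0.78 to 1.13 for the pair of CG10508.

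Several called genes have further probe sets, which read other parts of the gene or other transcripts. These share the same RNA, so they are not independent samples. For CG10508 a further probe set read 5.08 and 4.77 in LacZ RNAi and 5.15 and 5.76 in CP190 RNAi, a change of 0.53 in the same direction that was not called (limma adjusted p 0.551). For Asph a second probe set went from 5.17 and 5.21 to 5.42 and 5.68, a change of 0.36 that was not called either (limma adjusted p 0.499). Both were smaller than those of the called probe sets. The probe sets of Mob2 disagreed. The uncalled probe set read 8.58 and 8.85 in LacZ RNAi against 8.42 and 8.88 in CP190 RNAi, with a change of -0.07 (limma adjusted p 0.938). A second probe set of Prip, below the Bacillus limit in both groups, read 4.01 and 3.62 against 3.52 and 3.76, with a smaller change in the same direction as the called one (-0.17; limma adjusted p 0.768). Which transcripts each probe set covers is not given in the tables used here.

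The number of calls changed with the arrays that were kept. limma called 0 probe sets without CP190 replicate 1 (1215 at an unadjusted p under 0.05), and 2 without CP190 replicate 2, Cp190 and CG33307. In these fits the single CP190 array left is assumed to vary like the other groups. They have less data for the test, so a lost call does not show that a change rests on 1 array. Without CP190 replicate 1 the log2 change was -2.14 for Cp190, 1.27 for Kap-alpha3 and -1.11 for CG33307. With all arrays these were -2.15, 1.25 and -1.33. Without LacZ replicate 2 there were 5 calls, those of Cp190, Sid, Kap-alpha3, CG10232 and Mob2, and without LacZ replicate 1 there were 22, of which 8 were among the 15. Without either CG9740 array, which enters through the spread alone, there were 37, and these included all 15.

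The CP190 knockdown was then set directly against the CG9740 knockdown, a test without the LacZ arrays in the difference. Of the 15 probe sets, 7 passed it, and over the whole array 0.0799% of probe sets did (4.64% at an unadjusted p under 0.05). They had been picked with the same CP190 arrays, so this is no independent check. Sid read 8.78 and 8.58 in CG9740 RNAi, above both its LacZ values, with a direct difference of -2.13 (SE 0.12; limma adjusted p 0.000551). Mob2 read 5.67 and 5.45 there, which is within the range of the LacZ arrays, with a direct difference of 1.95 (SE 0.18; limma adjusted p 0.0121). Cp190, Asph, DIP-alpha, Prx6c and CG3703 also passed, with direct differences of -1.95, 1.27, 1.04, -0.83 and -1.23. With any 1 array left out the direct comparison called between 3 and 21 probe sets over the whole array, against 15 with all arrays.

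The other 8 called probe sets did not pass the direct test. CG10232 read 7.75 and 7.86 on the CG9740 arrays, next to its CP190 values, and the direct difference was -0.07 (95% interval -0.49 to 0.34). Kap-alpha3 read 7.40 and 7.42, with a direct difference of 0.12 (95% interval -0.10 to 0.35). CG33307 read 10.10 and 10.07, with a direct difference of -0.29 (95% interval -0.60 to 0.02). For these 3 genes both CG9740 arrays lay on the CP190 side, away from the LacZ arrays. Prip and CG10508 came closer to the threshold of the direct test. Prip read 4.92 and 4.93 on the CG9740 arrays, nearer to its LacZ values, with a direct difference of -0.83 (95% interval -1.08 to -0.58; limma adjusted p 0.0542). The pair of CG10508 read 4.85 and 4.89, and 5.71 and 5.599, also nearer to LacZ RNAi. Their direct differences were 0.70 (95% interval 0.46 to 0.94) and 0.72 (95% interval 0.47 to 0.96), both with a limma adjusted p of 0.0961. For y the CG9740 arrays read 3.70 and 3.66, between the groups and somewhat nearer to CP190 RNAi (direct difference -0.38, 95% interval -0.62 to -0.15; limma adjusted p 0.739). IFT52 also lay between the groups, nearer to CP190 RNAi, at 6.33 and 6.62 (direct difference 0.46, 95% interval 0.19 to 0.72; limma adjusted p 0.675). The intervals of Kap-alpha3, CG10232 and CG33307 include 0, which does not show that the knockdowns act alike on them. Their changes from LacZ RNAi rest on the same control arrays in both knockdowns: 1.12 for Kap-alpha3, -2.15 for CG10232 and -1.04 for CG33307 in CG9740 RNAi, against 1.25, -2.22 and -1.33 in CP190 RNAi.

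Because insulators separate neighbouring genes, the direct protein-coding neighbours of the 14 called genes were read from the order of genes in the RefSeq Release 6 annotation. Of 28 neighbours, 24 had a probe set paired with a single gene. Some overlap their called gene in the annotation: Zip88E (Cp190), Trmt112 (CG10508), mus81 (CG3703), CG7394 (Mob2), CenG1A (CG33307) and CG13021 (DIP-alpha). None of the 24 was called by limma, while 5 (20.8%) passed an unadjusted p under 0.05, against 9.14% of all 11982 genes with such a probe set. Each of these 5 had a change of the same sign as its called neighbour, and over all 24 the signs matched in 14. CG11825, next to Prx6c, read 9.11 and 9.43 in LacZ RNAi and 8.45 and 8.28 in CP190 RNAi. Its change of -0.90 (limma adjusted p 0.0891) stood beside -0.92 for Prx6c. CenG1A, a gene of the Arf GTPase activating family that overlaps CG33307 in the annotation, read 7.78 and 7.94 against 7.23 and 7.11, a change of -0.69 (limma adjusted p 0.130). In both neighbours the knockdown arrays were below both controls. CG9399, next to Kap-alpha3, had a change of 0.45, CG13021, which overlaps DIP-alpha, by 0.44, and nau, the muscle regulator nautilus next to CG10232, by -0.31 (limma adjusted p 0.566, 0.251 and 0.562). The neighbours of Asph, IFT52, Mob2, Prip, Sid and y that were measured had changes of -0.14 to 0.09. The median change of the 24 neighbours, taken as positive in the direction of the called gene, was 0.05.

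**Figure D3:**
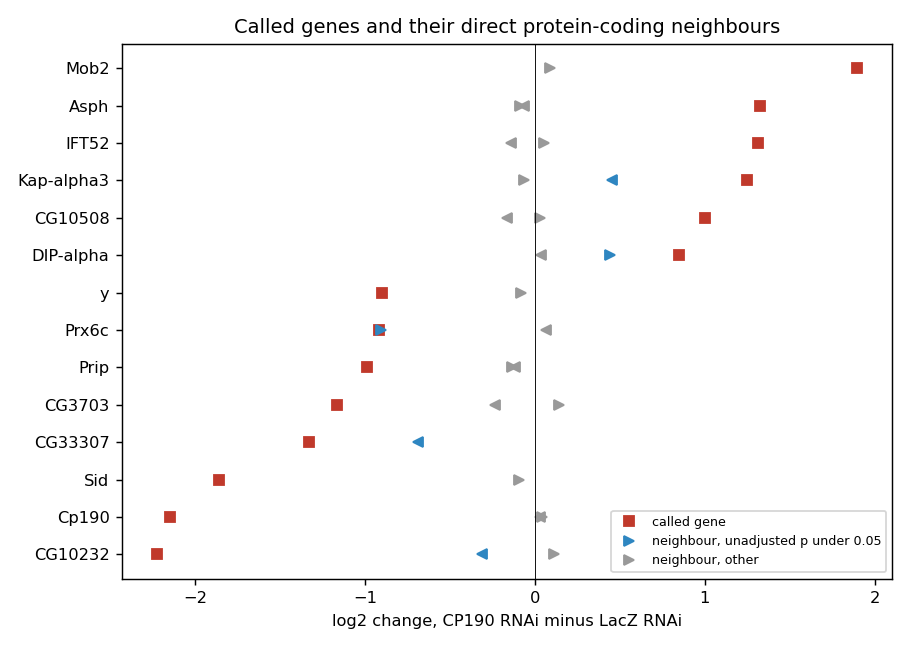
Log2 change of CP190 RNAi over LacZ RNAi (horizontal axis) for each of the 14 called genes (red squares) and its direct protein-coding neighbours (left- and right-pointing triangles, blue where the unadjusted p is under 0.05 and grey otherwise). The 5 blue triangles lie on the same side of 0 as their called gene, and the grey ones lie between -0.23 and 0.14.

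Across all adjacent measured genes that do not overlap (8372 pairs), the log2 changes had a Pearson r of 0.13, which fell to 0.04 for genes 5 places apart and 0.00 for genes 50 places apart. The difference between the LacZ replicates, which no knockdown separates, had r of 0.11 for adjacent genes. The pairs share arrays and genes, so these values are descriptions.

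The insulator proteins themselves were next compared, to see whether the loss of the Cp190 transcript went with other members of the family. Besides Cp190, 16 of the listed insulator and cohesin genes were measured, and limma called 0 of them, with 0 at an unadjusted p under 0.05. Over all 11982 genes read in the same way, from 1 probe set each, limma called 13, and 9.14% had an unadjusted p under 0.05, so a count of 0 in a short list is near that share. In the lists below, counts and ranges are likewise over 1 probe set per gene and stand beside the same 9.14%. The changes of the 16 genes ran from -0.20 to 0.10 with a median of -0.04, against a median of 0.002 for all 11982 genes. Ibf2 (CG9740), the other RNAi target of the series, read 9.30 and 9.64 in LacZ RNAi and 9.33 and 9.52 in CP190 RNAi, so the groups overlapped (change -0.05, SE 0.14). Ibf1, its partner, read 8.58 and 8.57 against 8.50 and 8.52. In CG9740 RNAi the level of Ibf2 was 7.05 and 7.30. The DNA-binding su(Hw) read 10.48 and 10.48 against 10.51 and 10.16, CTCF 9.82 and 9.81 against 9.85 and 9.84 at 1 of its 3 probe sets, and BEAF-32 10.82 and 10.87 against 10.79 and 10.82. At these probe sets all 3 stayed within 0.15 of the control on average, and the probe sets of CTCF ran from -0.04 to 0.23. With 1 probe set per gene, the largest change besides Cp190 was that of pzg, a zinc finger protein of interband chromatin, at -0.20 (limma adjusted p 0.615). mod(mdg4), which makes many isoforms by trans-splicing, is covered by 22 probe sets with changes of -0.29 to 0.15, none called and 1 at an unadjusted p under 0.05.

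CP190 is also a centrosomal protein, and 11 centrosome genes were measured. limma called 0, with 0 at an unadjusted p under 0.05, against 9.14% of all genes, and their median change was -0.05. SAK, the kinase that starts centriole duplication, had a change of -0.23 with overlapping groups, and -0.41 to -0.06 with any 1 array left out, and tacc, a microtubule regulator, had one of -0.17 (limma adjusted p 0.697 and 0.667). Among 9 cell cycle genes limma also called 0, with 0 at an unadjusted p under 0.05, again against 9.14% of all genes. Their changes lay between -0.12 for the mitotic cyclin CycB and 0.08 for CycB3. Of 8 listed Hox genes, whose domains are bounded by insulators in the fly, Ubx, abd-A, Abd-B and lab were not measured here. The counts do not cover them. The 4 measured genes, Dfd, Scr, Antp and pb, had means below the Bacillus limit on these arrays. With 1 probe set per gene their changes were -0.12 for Dfd to 0.10 for pb, and limma called 0, with 0 at an unadjusted p under 0.05. Antp has 3 probe sets, with changes from -0.25 to 0.09, and the lowest of them had an unadjusted p of 0.0319 (limma adjusted p 0.562).

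Genes of stress, immunity, RNA interference and hormone response were listed because a protein knockdown or the double-stranded RNA can move them. Measured were 4 of 11 heat shock, 8 of 18 immune, 3 of 6 RNA interference and 10 of 12 ecdysone response genes. The listed Hsp70 genes, AGO2 and Dcr-1 were among those not measured, so the counts do not cover them. In each list limma called 0 of the measured genes. Of 4 heat shock genes, 0 passed an unadjusted p under 0.05 and the largest change was that of the small chaperone Hsp26 at -0.32, followed by Hsf at -0.14. The groups overlapped for Hsp26, and its change ran from -0.58 to -0.06 with any 1 array left out. Of 8 immune genes, 1 did so, CecB, which encodes an antibacterial cecropin, at -0.27. PGRP-SB1, a peptidoglycan recognition protein, had the largest change of that list at 1.17 (SE 0.63; limma adjusted p 0.656). It read 7.67 and 6.46 in LacZ RNAi and 8.50 and 7.99 in CP190 RNAi, so the LacZ arrays were more than 1 apart. The CG9740 arrays, which enter the SE through the spread, were further apart at 7.96 and 10.12. AttD, an attacin, had a change of -0.35 with overlapping groups. In the RNA interference list 3 genes were measured. Dcr-2, which cuts double-stranded RNA, read 10.80 and 10.79 against 10.99 and 11.04, a change of 0.22 at an unadjusted p of 0.0296 (limma adjusted p 0.560), and loqs had a change of 0.13. Of 10 ecdysone response genes, ImpL2, a secreted insulin antagonist, was the only one of its list at an unadjusted p under 0.05. It read 12.02 and 12.48 against 11.78 and 11.997, a change of -0.36 (limma adjusted p 0.580) that ran from -0.59 to -0.13 with any 1 array left out. EcR, the ecdysone receptor, had a change of -0.26 at a level below the limit.

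**Figure D4:**
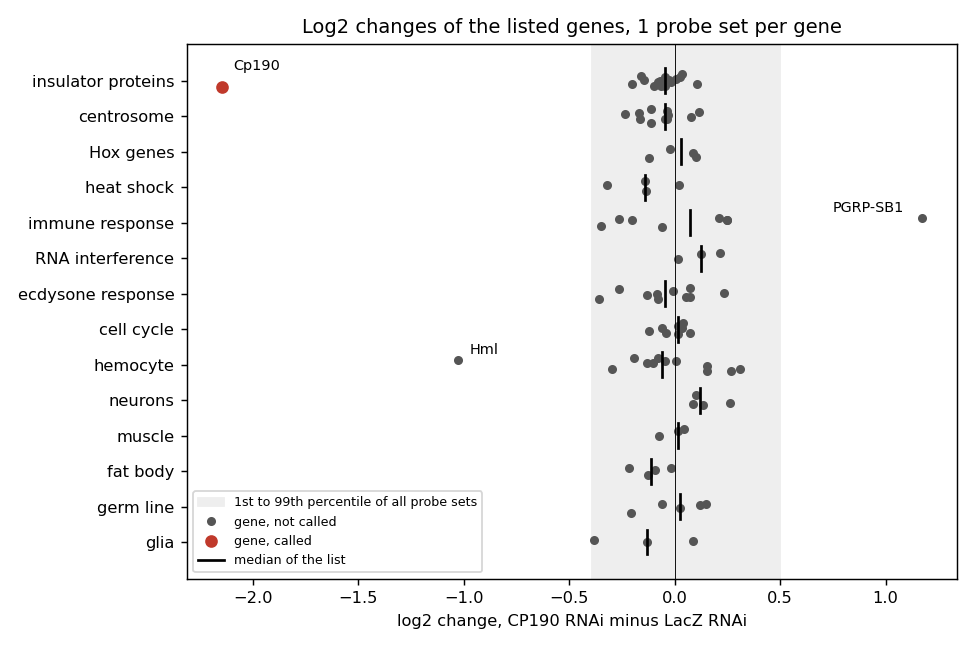
Log2 change of CP190 RNAi over LacZ RNAi (horizontal axis) for the measured genes of 14 lists, 1 probe set per gene, with the median of each list as a vertical bar and the range between the outer percentiles of all probe sets (-0.39 to 0.50) in grey. Cp190 at -2.15 is the only called gene, and Hml at -1.02 and PGRP-SB1 at 1.17 are the other genes outside the grey band.

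Markers of cell identity were also read. In 12 hemocyte genes limma called 0, and the 1 at an unadjusted p under 0.05 was Hml, the clotting protein hemolectin. Hml read 9.93 and 10.38 in LacZ RNAi and 8.83 and 9.43 in CP190 RNAi, a change of -1.02 (SE 0.26; limma adjusted p 0.412). Both knockdown arrays were lower, but the replicates of each group differed by up to 0.61. Fewer cells with the transcript and less of it per cell cannot be told apart in these bulk samples. The summed linear level of the 12 hemocyte genes was 13367 and 11940 in LacZ RNAi and 11352 and 12932 in CP190 RNAi, so the groups overlapped. The next furthest gene was He, hemese, at 0.31. Of markers of other cell types, elav, brp and nSyb of neurons, bam, piwi and aub of the germ line and moody and nrv2 of glia were above the limit in these cells, whereas all measured muscle and fat body markers were below it. limma called 0 of the 19 measured markers, and those at an unadjusted p under 0.05, a count near the 9.14% of all genes, were moody, a G protein-coupled receptor of glia, at -0.38 and Appl, a neuronal amyloid precursor protein homologue, at 0.26 (limma adjusted p 0.421 and 0.580). The furthest of the other lists were apolpp at -0.22 and Fbp1 at -0.13 in fat body, bam at -0.21 and vas at 0.15 in the germ line, nrv2 at -0.13 in glia, elav at 0.13 in neurons, and up at -0.08 and Mlc2 at 0.04 in muscle.

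Some probe sets came close to the threshold, and those named here were chosen after their values were seen. At an adjusted p from 0.05 to 0.1 there were 34, of which 19 were higher and 15 lower in CP190 RNAi. Nrg, the cell adhesion protein neuroglian, had 2 of its 3 probe sets among them. One read 8.34 and 8.05 in LacZ RNAi and 9.04 and 9.12 in CP190 RNAi, the other 8.93 and 8.83 against 9.81 and 9.59. The changes were 0.88 and 0.82 (limma adjusted p 0.0603 and 0.0755), and the other, below the Bacillus limit, had a change of 0.36. The gene CG32982 had probe sets at -1.03, -0.84 and -0.36 (limma adjusted p 0.0556, 0.125 and 0.5005). DAAM, a formin that organises actin, read 7.28 and 7.45 against 5.66 and 6.13, and vir-1, an RNA named for its induction by virus infection, 8.05 and 8.63 against 7.03 and 7.18. In both genes the knockdown arrays were below the controls, by -1.47 and -1.24 on average (limma adjusted p 0.0755 and 0.0640). Argk1, an arginine kinase that buffers ATP, had a larger difference of -1.68 but LacZ arrays at 10.27 and 11.17 (limma adjusted p 0.0940). CG8301 at 0.81, below the limit in both groups, and CG6790 at 0.61 were also in this range (limma adjusted p 0.0810 and 0.0891).

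Differences of at least 2-fold were found in 41 probe sets (0.218% of those tested), with 24 rises and 17 falls. limma called 9. In 28 of the 32 that were not called the groups did not overlap, against 39.3% of all probe sets. Picking probe sets by a 2-fold difference itself favours groups that do not overlap, so this count is no support for them. In 12 of these 32 the LacZ arrays were themselves at least 2-fold apart, and in each of the 12 LacZ replicate 2 lay further from the CP190 arrays than LacZ replicate 1. Over all probe sets 52 had LacZ arrays at least 2-fold apart, but 3 had CP190 arrays that far apart. The lowest change not called belonged to a probe set with no gene name, which read 9.89 and 11.53 in LacZ RNAi and 7.76 and 9.12 in CP190 RNAi (change -2.27, SE 0.81; limma adjusted p 0.547). The following genes were chosen after their values were seen. MFS3, a transporter of the major facilitator family, read 8.16 and 9.89 against 6.88 and 7.60. Cyt-b5-r, a cytochrome b5-related protein, read 8.02 and 5.89 against 8.80 and 8.46, and Lgr4, a leucine-rich repeat receptor, 7.49 and 5.63 against 8.45 and 7.97. Their changes of -1.79, 1.68 and 1.65 had SEs of 0.55, 0.69 and 0.60 and did not pass (limma adjusted p 0.5005, 0.570 and 0.553). The CG9740 arrays, which enter the SE through the spread, were also wide apart. They read 7.96 and 6.87 for MFS3, 7.82 and 9.50 for Cyt-b5-r and 7.85 and 9.29 for Lgr4. For the probe set with no gene name they read 9.58 and 7.16. With LacZ replicate 1 left out 101 probe sets differed at least 2-fold, and with LacZ replicate 2 left out 33 did.

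**Figure D5:**
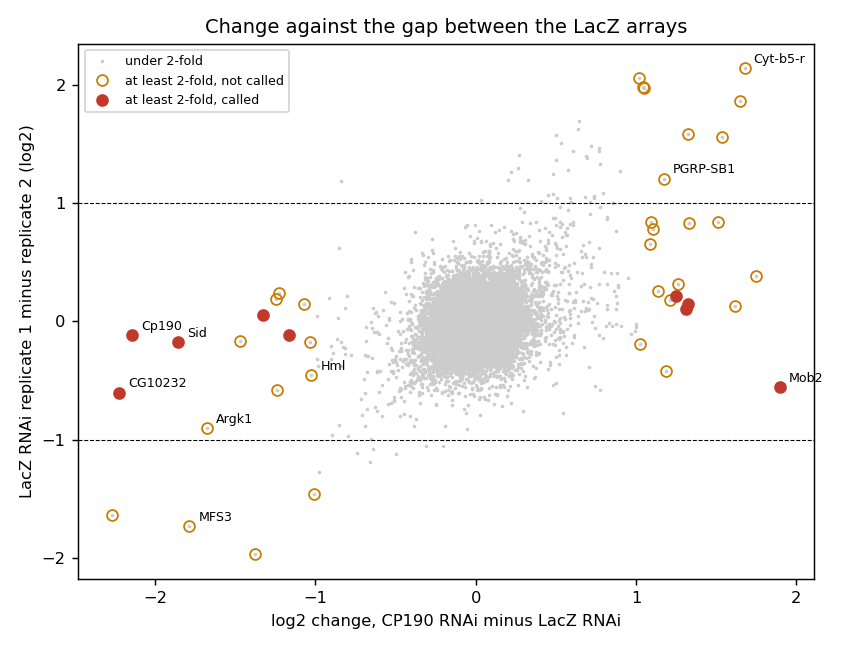
Difference between the LacZ arrays (vertical axis, replicate 1 minus replicate 2, log2) against the log2 change of CP190 RNAi over LacZ RNAi (horizontal axis), with probe sets changed at least 2-fold as filled red circles where called (9) and open orange circles where not (32). The called ones lie between the dashed lines at 1 and -1, and 12 open circles lie beyond them; both axes contain the LacZ values, which ties them together.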

How the data were processed

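Total RNA was amplified with a whole transcriptome kit and labelled with biotin, per the labels' protocols. The authors deposited 1 log2 value per probe set and array, made with GCOS and RMA per the submitters' processing notes; version and filters are not stated there. That the values, 2.02 to 14.2, are on a log2 scale was inferred from their range. Gene names came from GEO's platform annotation: 13647 tested probe sets have 1 gene, 402 several and 4720 none here, and 13544 of the first were found by Entrez ID in the RefSeq gene table.

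limma 3.58.1 (R 4.3.3) fitted a mean per group to all 6 arrays (3 residual and 5.05 prior degrees of freedom), two-sided, with Benjamini-Hochberg adjustment over 18769 probe sets and a threshold of 0.05. Intervals are 95% intervals of that fit. Listed genes are read from the probe set with the highest mean over the 6 arrays. Named genes are up to 10 called rises and 10 falls without overlap of the groups, the RNAi targets and the 2 furthest members of each list; others are marked as chosen after their values were seen. Comparisons and lists were chosen with earlier results of these data known. Neighbours are adjacent protein-coding genes by start position. The fit was tested on simulated data, and figures were drawn with matplotlib 3.10.9. Background correction could not be varied, and the number of arrays limits the precision. No sequence is shown.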

Additional observations from a re-analysis of the deposited data

How the results depend on the processing

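The 15 calls against LacZ RNAi became 37 with only the 4 compared arrays, 31 with an intensity trend in the prior variance, 25 with a robust prior, 9 among probe sets above the median level, 8 among those above the brightest Bacillus control (a limit chosen after seeing the data) and 49 at an adjusted p under 0.1. With 1 array left out the count ran from 0 to 37. Quantile normalization gave 15 and median centring 16. For the direct comparison with CG9740 RNAi the 15 calls became 26 with the trend, 23 with the robust prior, 29 at an adjusted p under 0.1 and 3 to 21 with 1 array left out. The 41 differences of at least 2-fold became 33 to 101 with 1 array left out. Equal replicate numbers did not go together in every pair of groups. At equal numbers, deviations from the group means correlated at 0.16 for CP190 and LacZ. The values were -0.32 for CG9740 and LacZ and -0.19 for CG9740 and CP190. With the CG9740 numbers crossed, both negative values turn positive. Whether the arrays share a structure under such numbers that widens the spread was not tested. The replicate block gave 2 calls, Cp190 and Sid, and 4 in the direct comparison. Crossing the CG9740 numbers in the block, an alternative added after seeing the data, gave 134 calls, and 43 in the direct comparison. With 1 array left out the test has less data, yet the count against LacZ RNAi moved both below and above 15. The cause of these and of the other shifts was not tested. The 15 called changes kept their sign under every alternative that tested them. This could hardly come out otherwise and is no check of them. The groups of each lay at least 0.73 apart, so leaving out 1 array cannot turn a sign. With 1 array left out, uncalled changes near 0 turned sign: Ibf2 ranged from -0.21 to 0.12, pb from -0.0489 to 0.25, Mlc2 from -0.13 to 0.21, nrv2 from -0.29 to 0.0321, up from -0.22 to 0.0666, elav from -0.0302 to 0.30, loqs from -0.0636 to 0.32 and apolpp from -0.44 to 0.0084. Other uncalled changes kept their sign but moved widely: AttD from -0.70 to -0.0048, PGRP-SB1 from 0.57 to 1.78, He from 0.07 to 0.55, EcR from -0.44 to -0.08 and Appl from 0.11 to 0.41. Signals near the Bacillus controls give no exact fold.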
